A study of Mus musculus with 6 samples.

Results

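The genes described here are those of cholesterol synthesis, uptake and efflux, measured in 3T3-L1 cells, a mouse cell line from embryonic fibroblasts that serves as a culture model of fat cell formation. A list of 31 genes was drawn up, and every probe set that the platform annotation assigned to exactly 1 of them was taken. This gave 67 probe sets of 45101 on the array, for 29 genes of 18193, since no probe set named Acat2 or Soat1 alone. One-colour oligonucleotide arrays were hybridised with RNA from control cells and from cells treated with resveratrol, a polyphenol of grape skin, with 3 arrays a group. The labels give neither dose, nor exposure time, nor stage of differentiation, so the comparison addresses only which transcripts differ with treatment. No label says whether the replicates of a group were separate, independently grown cultures. A p-value thus reflects only how these samples scatter, which may be technical. With so few arrays, precision is limited by their number.

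Cells build cholesterol from acetyl-CoA. The mevalonate pathway yields isoprenoid units, these are joined to squalene, squalene is closed to lanosterol, and a series of demethylations, reductions and isomerisations turns lanosterol into cholesterol. Transcription of most of these enzymes is driven by the factor SREBP2, encoded by Srebf2. The escort protein SCAP carries it to the Golgi for cleavage when sterols are scarce, and the INSIG proteins hold both in the endoplasmic reticulum when sterols are plentiful. Fat cells keep a large pool of free cholesterol in the monolayer around their lipid droplets and in the plasma membrane, take it up from lipoproteins and hand it to HDL through transporters such as ABCA1.

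Promoter sequences were taken from RefSeq (GRCm38.p6), whose table matched 24 of the 31 genes. The windows of 250 bases upstream of the start site are shown for Idi1, Insig2 and Abca1, which fell through more than 1 probe set, for Lbr, which rose, and for Hmgcs1, the only one of the 24 with an exact match to the sterol element searched. They read 5′ to 3′ in the direction of the gene, and capitals mark each searched motif on either strand.
Idi1 (chr13:8885356-8885605, + strand): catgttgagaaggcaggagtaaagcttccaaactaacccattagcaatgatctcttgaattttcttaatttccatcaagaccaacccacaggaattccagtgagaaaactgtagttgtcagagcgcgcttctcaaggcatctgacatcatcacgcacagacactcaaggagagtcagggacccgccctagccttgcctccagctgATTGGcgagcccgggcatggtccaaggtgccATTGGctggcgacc
Insig2 (chr1:121332590-121332839, - strand, the first of 3 listed starts): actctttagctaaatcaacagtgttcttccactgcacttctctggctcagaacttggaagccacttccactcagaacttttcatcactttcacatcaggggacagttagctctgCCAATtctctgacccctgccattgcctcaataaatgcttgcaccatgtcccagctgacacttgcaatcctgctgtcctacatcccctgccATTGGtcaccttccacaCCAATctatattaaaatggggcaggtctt
Hmgcs1 (chr13:119690101-119690350, + strand): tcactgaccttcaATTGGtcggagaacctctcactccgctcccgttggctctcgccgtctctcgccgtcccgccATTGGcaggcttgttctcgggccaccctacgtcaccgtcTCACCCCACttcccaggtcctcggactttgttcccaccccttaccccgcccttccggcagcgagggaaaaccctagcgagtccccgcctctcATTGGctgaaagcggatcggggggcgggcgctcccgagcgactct
Abca1 (chr4:53159896-53160145, - strand): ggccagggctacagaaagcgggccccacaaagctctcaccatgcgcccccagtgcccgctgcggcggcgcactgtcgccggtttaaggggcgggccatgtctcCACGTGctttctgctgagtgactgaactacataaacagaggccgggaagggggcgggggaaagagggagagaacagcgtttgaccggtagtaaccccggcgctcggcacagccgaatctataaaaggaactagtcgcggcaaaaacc
Lbr (chr1:181842402-181842651, - strand): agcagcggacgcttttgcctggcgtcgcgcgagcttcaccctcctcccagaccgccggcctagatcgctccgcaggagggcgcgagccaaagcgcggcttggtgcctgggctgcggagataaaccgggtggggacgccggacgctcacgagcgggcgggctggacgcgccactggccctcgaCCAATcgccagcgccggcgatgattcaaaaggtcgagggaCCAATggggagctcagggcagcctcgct

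Both strands of the 300 bases around each start, the 250 above and 50 downstream, were searched for exact matches. A gene with several listed starts was counted if any of them held the motif. CCAAT, the box bound by NF-Y, a factor known to work beside SREBPs at sterol genes, lay in 21 of the 24 genes matched, or 87.5%, against 41.1% of all 27025 genes in the table and 37.4% of its promoters. Acat2, Scap and Abca1 were the 3 without it. The sterol regulatory element, searched as TCACNCCAC, lay in Hmgcs1 alone, with its first base at -137 from the start, against 1.44% of all genes and 1.24% of promoters. The E-box CACGTG lay in 6 of the 24 genes (Hsd17b7, Sc5d, Dhcr7, Scap, Insig1 and Abca1), against 8.09% of all genes and 7.15% of promoters. Every E-box contains the hypoxia core ACGTG on both strands, and the same 6 genes held that core, against 21.8% of all genes and 19.6% of promoters. These matches describe the windows only. An exact search misses variant forms of a motif, so genes without a match were not shown to lack the element. Of the genes that passed the test below and have a listed promoter, Idi1, Pmvk, Insig2 and Lbr held CCAAT and Abca1 held the E-box.

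Resveratrol-treated cells had lower signals for an isoprenoid enzyme pair, Pmvk and Idi1, for the squalene-oxidising enzyme Sqle, for the SREBP-retaining protein gene Insig2 and for the efflux transporter gene Abca1. One gene, Lbr, was higher. Differences were taken on the log2 scale of intensity plus 16 and tested by limma over 27022 probe sets, a gene being read from its brightest probe set and passing at a Benjamini-Hochberg adjusted p below 0.05. All 29 genes were bright enough to be tested. Of these, 5 fell (17.2%), 1 rose (3.45%) and 23 did not pass. Over all 12630 genes tested 5.21% fell and 5.32% rose. The log2 difference was below 0 in 22 of the 29 genes (75.9%), against 46.3% of all genes tested, and its median was -0.15 against 0.02. The control and treated arrays lay fully apart downwards in 13 of the 29 genes, or 44.8%, where the share over all genes was 13.7%. They lay apart upwards in 3, or 10.3%, where it was 16.5%. Set against the control mean of each gene, the median gene lay between -0.03 and 0.04 on the control arrays and at -0.14, -0.13 and -0.20 on resveratrol replicates 1, 2 and 3. With bulk RNA, fewer cells of a kind and less RNA per cell cannot be told apart.

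**Figure D1:**
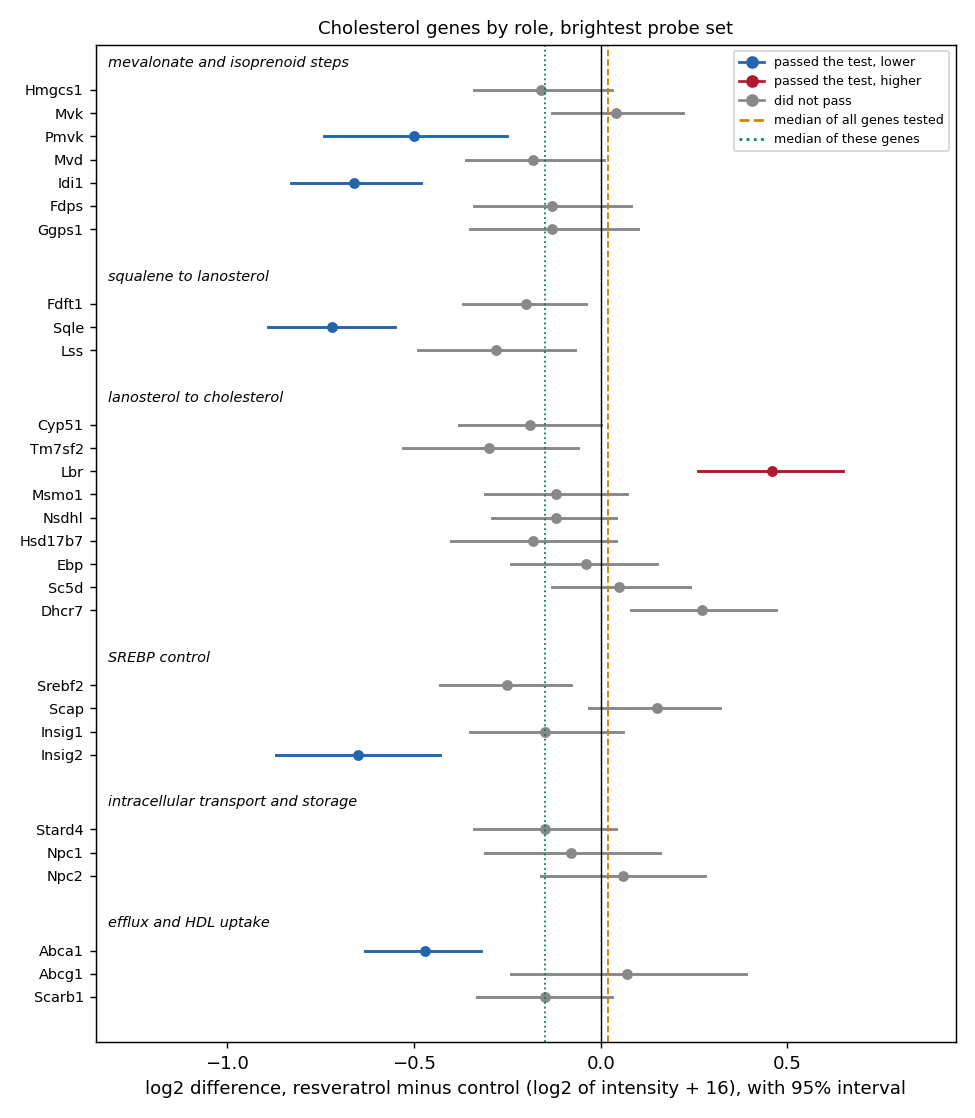
Log2 difference between resveratrol and control cultures (x axis, log2 of intensity plus 16) for the brightest probe set of each of the 29 genes, grouped by role, with 95% intervals from limma (3 arrays a group). Pmvk, Idi1, Sqle, Insig2 and Abca1 passed the test as lower (blue) and Lbr as higher (red); the dotted line is the median of these genes, -0.15, and the dashed line that of all genes tested, 0.02.

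The arrays differed in the brightness of their spikes, and the control and treated groups differed in some markers of cell type. The hybridisation spikes were brighter on control replicates 1 and 2 and resveratrol replicate 1, and dimmer on the other 3 arrays. Values within each side of this split are given for the cholesterol genes that passed and for some of the others. Adipocyte markers were bright in both groups. All 6 tested had log2 differences below 0, with a median of -0.29, and 2 of them fell, Cidec (-0.57; -0.51 on the brighter side of the split and -0.46 on the dimmer side) and Slc2a4 (-1.19; -1.22 and -1.13). Fabp4, Adipoq and Lpl had -0.17, -0.34 and -0.15 on the brighter side but 0.04, 0.01 and 0.14 on the dimmer side. Pparg had -0.30 and -0.28. The 6 markers summed to 28382 to 43556 in control and 27310 to 33928 in treated cultures, mostly from Fabp4, Lpl and Adipoq. Of 6 markers of dividing cells tested 4 rose (Cdk1, Birc5, Rrm2 and Mcm5), while Top2a and Mki67, at 0.11 and -0.02, did not pass. The median over the 6 was 0.48, with sums of 1750 to 1949 in control and 2648 to 3013 in treated cultures. Over all genes tested 5.21% fell and 5.32% rose. Of 5 preadipocyte and fibroblast markers 1 rose, Thy1 (0.40), with a median of 0.03 and sums of 17644 to 20390 and 16766 to 20441. Col1a1 went the other way, at -0.32 with groups that lay apart, but did not pass (limma adjusted p = 0.0757). Dlk1, Pdgfra and Vim had 0.08, -0.07 and 0.03. Of 5 macrophage markers tested 1 rose, Cd14, with a median of 0.21 and sums over 7 markers of 281 to 358 and 386 to 439; its call was lost without control replicate 2 or 3 or resveratrol replicate 1 or 2 (adjusted p = 0.0716 to 0.142). No marker with a probe set was listed at 0, and the macrophage markers Itgam and Ptprc were too dim to be tested, with group means between 6.40 and 13.8. The part of these shifts in the results on cholesterol genes was not tested.

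In the mevalonate and isoprenoid steps 2 of 7 genes fell and none rose, where 5.21% of all genes tested fell and 5.32% rose. This and the role groups below hold few genes, so their counts are descriptions and no result about a role. Idi1, the isomerase that turns isopentenyl into dimethylallyl diphosphate, had intensities of 1721, 1874 and 1861 in control and 1061, 1161 and 1228 in treated cultures. All treated arrays lay below all controls, and the treated mean was 63.2% of the control mean. The log2 change was -0.66 ± 0.08 (SE, n = 3 a group, limma adjusted p = 0.000625). A second probe set of Idi1 went from 964, 1018 and 1132 to 832, 805 and 786 and passed as well, at -0.35 (adjusted p = 0.0194). The 95% intervals of the probe sets, -0.83 to -0.48 and -0.53 to -0.18, overlapped at their ends, and the difference between them was not tested.

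Pmvk, the kinase that phosphorylates mevalonate a further time, had 368, 297 and 285 in control and 242, 202 and 213 in treated cultures. Its groups lay apart, with control replicate 1 well above the other controls, and the change was -0.50 ± 0.11 (SE, adjusted p = 0.0191). Pmvk has 1 probe set only. Its call was lost without resveratrol replicate 2 (-0.44, adjusted p = 0.0818) and without resveratrol replicate 3 (-0.48, adjusted p = 0.0549). Over all alternatives that gave it a value, its adjusted p ran from 0.0116 to 0.0829.

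The other 5 genes of these steps did not pass. Hmgcs1, the cytosolic synthase that makes HMG-CoA, had 3131, 3459 and 2956 in control and 2828, 2830 and 2885 in treated cultures at its brightest probe set, a log2 difference of -0.16 ± 0.08 (SE, adjusted p = 0.311). This probe set is of a kind that may cross-hybridise (_x_at). The one chosen without endings in _x_at, _s_at or _a_at had -0.22 (limma adjusted p = 0.431). All 5 probe sets of Hmgcs1 had differences below 0, from -0.27 to -0.10, and the groups lay apart in 3 of them. The lowest, at 3282, 3360 and 3143 against 2485, 2724 and 2908, had adjusted p = 0.0763, and 0.0489 with the spike split as a block (-0.42 on the brighter side and -0.16 on the dimmer side). Mvd, which decarboxylates mevalonate diphosphate, had -0.18 and -0.16 at its 2 probe sets, Fdps, the farnesyl diphosphate synthase, had -0.13, and Ggps1, which makes geranylgeranyl diphosphate, had -0.13 at the brightest of 4. Mvk, the first mevalonate kinase, had 0.04, with a 95% interval of -0.13 to 0.22 that leaves out a fall as large as that of Idi1.

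Of the genes that take farnesyl diphosphate to lanosterol, 1 of 3 fell and none rose. Sqle, the squalene epoxidase and a flux-controlling oxygen-dependent step, had 2440, 2462 and 2448 in control and 1490, 1582 and 1381 in treated cultures. The controls were nearly equal, at 2450 ± 10.9 (SD, n = 3), and every treated array was far below them, at 1485 ± 101. The log2 change of -0.72 ± 0.08 (SE, adjusted p = 0.000243) was the lowest of the 29. It was -0.71 within the arrays of brighter spikes and -0.72 within those of dimmer spikes. Like Pmvk, Sqle has 1 probe set only.

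The neighbouring enzymes had smaller differences that did not pass. Fdft1, the squalene synthase upstream of Sqle, had 1436, 1415 and 1333 against 1216, 1277 and 1141, groups that lay apart, with a difference of -0.20 ± 0.07 (SE, adjusted p = 0.135). Lss, the cyclase downstream of it, had 1219, 1141 and 1123 against 918, 1104 and 856, with a difference of -0.28 ± 0.10 (SE, adjusted p = 0.105), and -0.36 and -0.20 on the brighter and dimmer sides of the split. Lss passed without resveratrol replicate 2, at -0.38 (adjusted p = 0.0372; the range over all alternatives was 0.0372 to 0.288). Its 3 probe sets did not point one way, as the dimmer ones had -0.48 (adjusted p = 0.0719) and 0.09 (adjusted p = 0.815).

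**Figure D2:**
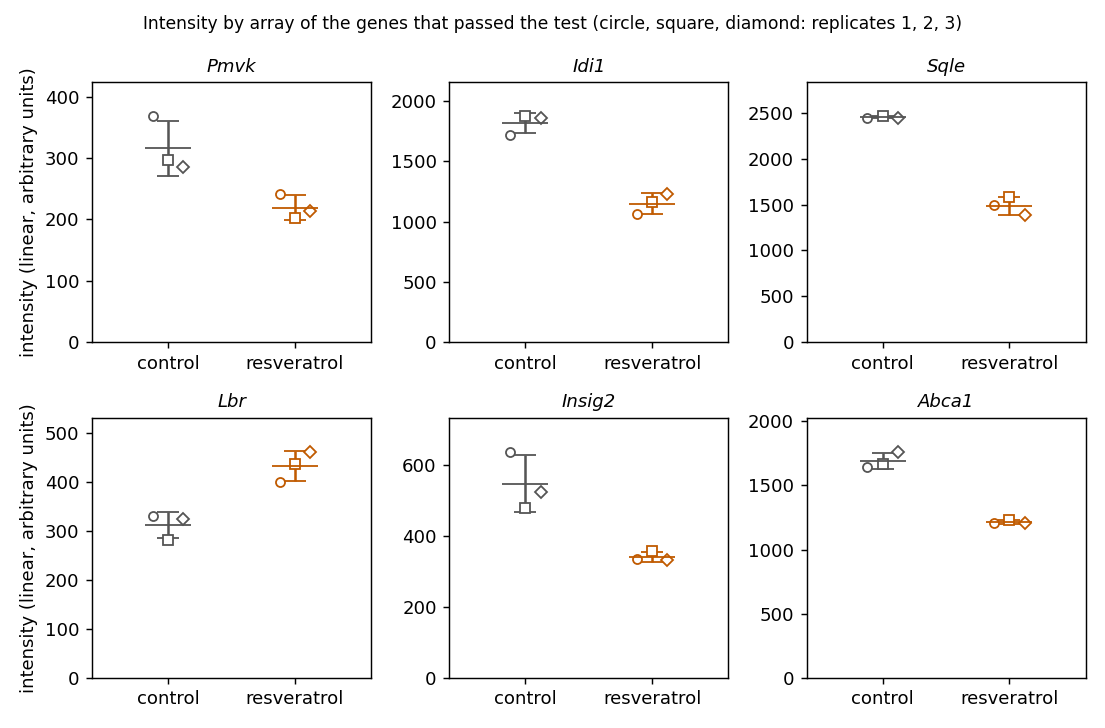
Intensity on each array (y axis, linear scale from 0, arbitrary units) for the 6 genes that passed the test, with the mean and SD of the 3 arrays of a group; circles, squares and diamonds are replicates 1, 2 and 3. In Pmvk, Idi1, Sqle, Insig2 and Abca1 all treated arrays lie below all controls, and in Lbr all lie above.

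Between lanosterol and cholesterol 1 of 9 genes rose and none fell. Lbr, the lamin B receptor, is a nuclear envelope protein that also has sterol C14 reductase activity. It has 1 probe set only, which had 330, 281 and 323 in control and 400, 436 and 461 in treated cultures. The groups lay apart, and the change was 0.46 ± 0.09 (SE, adjusted p = 0.0104), with 0.38 on the brighter side of the spike split and 0.46 on the dimmer side. Without control replicate 2, the lowest control, it was 0.39 and no longer passed (adjusted p = 0.0503; the range over the alternatives was 0.00612 to 0.065). Tm7sf2, the other C14 reductase, had a difference of opposite sign, at 310, 268 and 290 against 242, 260 and 198. Its groups lay apart as well, but the difference of -0.30 ± 0.11 (SE) did not pass (adjusted p = 0.123), and was -0.19 without resveratrol replicate 3.

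Dhcr7, the reductase of the last step, was the gene closest to the threshold among those with higher values. It had 1116, 1109 and 920 in control and 1211, 1345 and 1243 in treated cultures, a difference of 0.27 ± 0.09 (SE, adjusted p = 0.0925). The groups did not overlap, but the value was 0.12 within the arrays of brighter spikes and 0.48 within those of dimmer spikes. Sc5d, the desaturase just before it, had 0.05 (95% interval -0.13 to 0.24).

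The remaining genes of this stretch did not pass. Cyp51, the lanosterol demethylase, had 1070, 1096 and 1160 against 969, 1078 and 873, with overlapping groups and a difference of -0.19 ± 0.09 (SE, adjusted p = 0.233). Msmo1, the C4 methyl oxidase, had -0.12, and Nsdhl, the C4 decarboxylase, also -0.12. Ebp, the isomerase of the ring double bond, had -0.04. Hsd17b7, a 3-ketosteroid reductase, had differences below 0 at all 4 probe sets, of which 1 passed. The brightest had 449, 532 and 592 against 473, 470 and 433, with overlapping groups and -0.18 ± 0.10 (SE, adjusted p = 0.333). Another went from 439, 406 and 387 to 293, 304 and 348 and passed, at -0.37 ± 0.09 (SE, adjusted p = 0.0286), and the remaining 2 had -0.10 and -0.28. That probe set is of a kind that may cross-hybridise (_x_at). Its call was lost with the spike split as a block (limma adjusted p = 0.0546) and with the replicate number as a block (0.0535).

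Among the genes that control SREBP processing 1 of 4 fell. Insig2 had 638, 480 and 524 in control and 336, 357 and 332 in treated cultures at its brightest probe set. Treated arrays were alike and lay below all controls, of which replicate 1 was the highest. The log2 change was -0.65 ± 0.10 (SE, adjusted p = 0.00297). The other 2 probe sets of Insig2 passed too. One went from 356, 330 and 334 to 200, 263 and 237, a change of -0.52 (adjusted p = 0.00959), and the other from 442, 491 and 499 to 353, 400 and 322, a change of -0.40 (adjusted p = 0.0237). Insig2 was thus the only one of the 18 genes with more than 1 tested probe set, apart from Idi1, whose probe sets all passed.

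Insig1, the paralogue of Insig2 and itself a classical target of SREBPs, had 1210, 982 and 994 in control and 935, 1034 and 898 in treated cultures. The groups overlapped, with a difference of -0.15 ± 0.09 (SE, adjusted p = 0.424) and a 95% interval of -0.35 to 0.06. Without control replicate 1, the highest control, it was -0.05. The difference between the paralogues was not tested. Srebf2 had 445, 439 and 428 against 343, 355 and 396, groups that lay apart, and a second probe set with 364, 352 and 383 against 314, 278 and 343. The differences were -0.25 ± 0.08 (SE, adjusted p = 0.0796) and -0.23 ± 0.09 (SE, adjusted p = 0.165), so neither passed. The first was -0.35 on the brighter side of the split and -0.18 on the dimmer side. Scap had 466, 448 and 477 against 509, 482 and 556, a difference of 0.15 ± 0.08 (SE, adjusted p = 0.321).

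**Figure D3:**
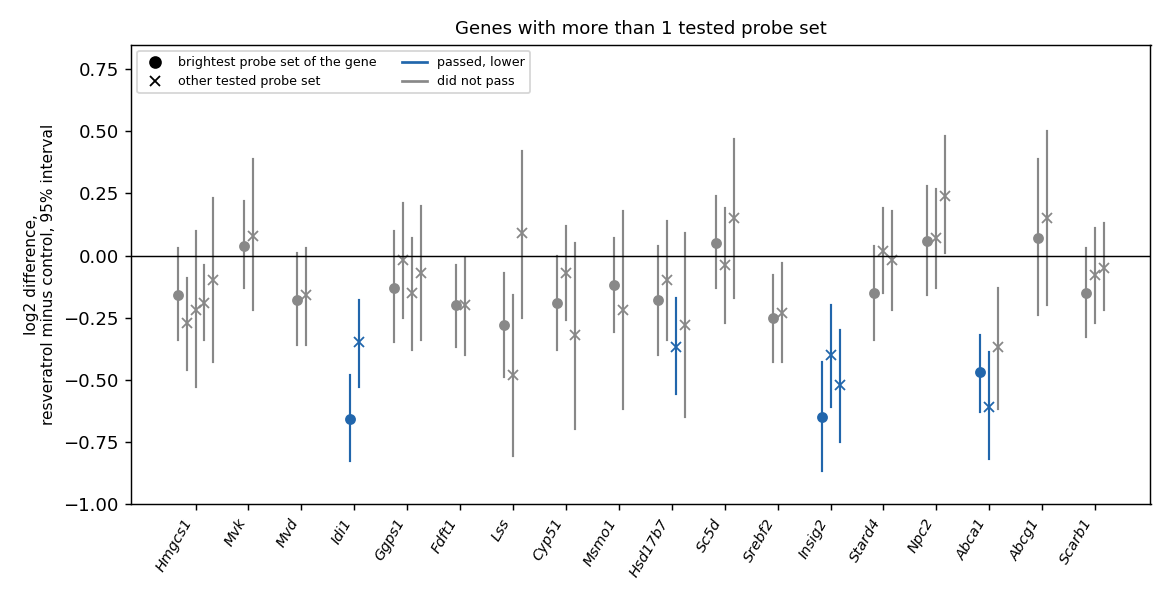
Log2 difference between resveratrol and control (y axis) with 95% intervals for every tested probe set of the 18 genes that have more than 1; circles are the brightest probe set of a gene, crosses the others. All probe sets of Idi1 and Insig2, 2 of 3 of Abca1 and 1 of 4 of Hsd17b7 passed as lower (blue); those of Lss, Sc5d and Stard4 lie on both sides of 0.

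Of the genes of efflux and HDL exchange 1 of 3 fell. Abca1, the transporter that loads cholesterol onto lipid-poor apolipoprotein and is switched on by the oxysterol receptors LXR, had 1647, 1667 and 1764 in control and 1207, 1231 and 1207 in treated cultures. Both groups were tight and lay apart, and the change was -0.47 ± 0.07 (SE, adjusted p = 0.00211). A second probe set went from 376, 442 and 460 to 255, 265 and 302, a change of -0.61 (adjusted p = 0.00359). The third went from 169, 204 and 215 to 158, 134 and 149, groups that also lay apart, but did not pass (-0.37, adjusted p = 0.0654).

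Abcg1, the transporter that passes cholesterol to mature HDL and a further known target of LXR, did not follow. It had 208, 335 and 272 in control and 252, 303 and 293 in treated cultures, with overlapping groups and a difference of 0.07 ± 0.14 (SE, adjusted p = 0.828). Its 95% interval of -0.24 to 0.39 leaves out a fall as large as the -0.47 measured for Abca1, and the difference between the transporters was not tested. Scarb1, the HDL receptor, had 1958, 1666 and 1687 against 1603, 1620 and 1536. Its groups lay apart at this probe set, with a difference of -0.15 ± 0.08 (SE, adjusted p = 0.317), and overlapped at the other 2, with -0.08 and -0.05.

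None of the 3 tested genes of intracellular transport passed, and storage was not measured, since no probe set named Soat1 alone. Npc2, the soluble lysosomal protein that hands cholesterol to Npc1, had 4148, 4296 and 3524 against 4512, 3985 and 3942, a difference of 0.06 (95% interval -0.16 to 0.28). Npc1 itself, the membrane protein that exports it, had -0.08 (95% interval -0.31 to 0.16). Stard4, a soluble sterol carrier, had -0.15 at its brightest probe set and 0.02 and -0.02 at the others.

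Counted by probe set, 62 of the 67 were bright enough to be tested, and 10 fell and 1 rose. Of all probe sets tested on the array, 4.22% fell and 3.95% rose. The 5 left out belong to Fdps, Fdft1 (2 of them), Scap and Npc2, and had group means of at most 13.5. Of the 18 genes with more than 1 tested probe set, 12 had all differences below 0, 3 had all above 0 (Mvk, Npc2 and Abcg1) and 3 had both signs (Lss, Sc5d and Stard4). Probe sets of 1 gene read the same RNA and are not replicates.

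**Figure D4:**
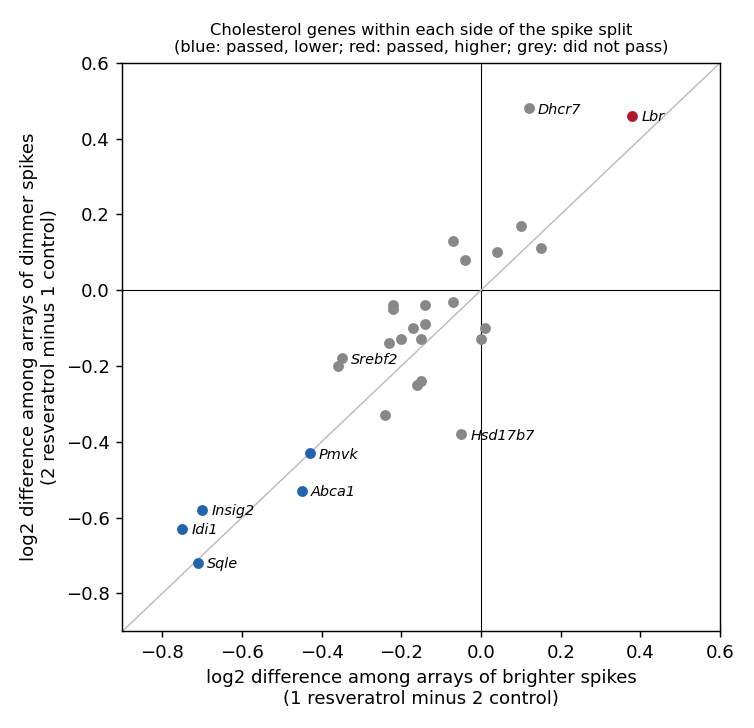
Log2 difference of each of the 29 genes among the arrays of brighter spikes (x axis, resveratrol replicate 1 minus the mean of control replicates 1 and 2) and among those of dimmer spikes (y axis, the mean of resveratrol replicates 2 and 3 minus control replicate 3). The 5 genes that fell lie between -0.75 and -0.43 on both axes and Lbr at 0.38 and 0.46, while Hsd17b7 and Dhcr7 lie far from the diagonal.

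Since the groups lay apart in all 6 genes that passed, the sign on each side of the spike split was fixed, and only the sizes are informative. Each side has 1 array in 1 of its groups. Idi1 had -0.75 and -0.63, Insig2 -0.70 and -0.58, Abca1 -0.45 and -0.53, and Pmvk -0.43 and -0.43, in the order brighter, dimmer. All 6 passed with the split as a block.

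Further genes of sterol handling were taken from 5 lists. Of 55 genes listed 46 were tested, of which 4 fell, 2 rose and 40 did not pass, with a median of -0.05. These shares, 8.70% and 4.35%, lie near the 5.21% and 5.32% of all genes tested, and are no result about these lists. Among the genes for sterol sensing and nuclear receptors, 1 of 9 rose: Rxra, the partner receptor of LXR, had a change of 0.41 ± 0.08 (SE, adjusted p = 0.00953), with 0.40 and 0.50 on the brighter and dimmer sides of the split. Nr1h3, which encodes LXR alpha, had -0.13 ± 0.11 (SE, adjusted p = 0.558), and no probe set named Nr1h2 alone. Srebf1, the gene of the sister factor and a target of LXR, had 533 ± 80.4 in control and 529 ± 55.8 (SD, n = 3) in treated cultures (adjusted p = 0.993). In lipoprotein uptake and lysosomal release 1 of 7 fell, Cd36, a scavenger receptor for oxidised lipoproteins and fatty acids, at -0.44 ± 0.09 (SE, adjusted p = 0.012), with -0.39 and -0.42 on these sides. The call of Cd36 was lost without control replicate 2 (-0.38, adjusted p = 0.0532) and without resveratrol replicate 2 (-0.40, adjusted p = 0.0766).

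Among sterol transfer proteins 3 of 15 fell and none rose, where 5.21% of all genes fell, but each of the 3 calls was lost when single arrays were left out. Gramd1b, which moves cholesterol from the plasma membrane to the endoplasmic reticulum, changed by -0.39 (adjusted p = 0.0215), a call lost without control replicate 1 or 2 or resveratrol replicate 1 or 3. Osbpl3 changed by -0.39 (adjusted p = 0.0439), but the mean of its probe sets had -0.0058, and the call was lost with the spike split as a block (-0.40, adjusted p = 0.069). Osbpl9 changed by -0.28 (adjusted p = 0.028). Its probe set chosen when those ending in _x_at, _s_at or _a_at were left out had -0.11 (limma adjusted p = 0.72). The calls of Osbpl3 and Osbpl9 were each lost in 5 of the 6 fits that left out 1 array. Of the oxysterol enzymes 1 of 4 rose, Cyp7b1, the oxysterol 7-alpha-hydroxylase, from 122 ± 9.99 to 187 ± 11.8 (SD, n = 3), a change of 0.56 ± 0.10 (SE, adjusted p = 0.00697), with 0.52 and 0.49 on the brighter and dimmer sides of the split. None of 11 tested genes that use isoprenoids passed, such as Fnta and Fntb of farnesyltransferase, with 0.04 and 0.02, and the median of that list was 0.01.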

How the data were processed

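Each array's deposited values are linear intensities, with 1 value for a probe set, as the authors left them. Per the labels' protocols, Trizol RNA was labelled with biotin by the array maker's standard procedure; the summary software was not given in the sources used here. Trimmed by 2% at both ends, every column averages 150, so 1 scaling factor per array was applied, which keeps any signal-dependent difference between arrays. Control replicate 1 holds more decimals than the other arrays.

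Of 45101 probe sets, 64 controls were left out; 34945 name 1 gene, 932 several and 9160 none in the platform annotation. By mean log2(intensity + 16) over the 6 arrays, the top 60% were kept, and these 27022 were tested by limma 3.58.1 in R 4.3.3 with lmFit and eBayes (trended prior, 2-sided tests, Benjamini-Hochberg over all of them). The offset of 16 understates changes of dim probe sets. As alternatives, the values were quantile normalized, the offset was set to 1 or 64, the filter was dropped or narrowed to the top 40%, the trend was dropped, arrays were weighted, the replicate number or the spike split entered as a block, probe sets of a gene were averaged, those ending in _x_at, _s_at or _a_at were excluded, and each array was left out. The fit was tested on simulated data. Figures were drawn with matplotlib 3.10.9 under Python 3.11.15.

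The genes and lists were chosen with earlier results of these data known. Per-array values are given for genes that passed, lay just past the threshold or had probe sets that disagree, and for neighbours in the pathway chosen after their values were seen; of other lists, genes that passed and Srebf1, Nr1h3 and Nr1h2 are named, with 2 farnesyltransferase genes chosen later.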

Additional observations from a re-analysis of the deposited data

How the results depend on the processing

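Of 491 values of the 29 cholesterol genes under 17 alternatives, 479 kept their direction and their side of the threshold, 6 lost a call, 1 gained one and 5 changed sign. Sqle, Idi1, Insig2 and Abca1 passed under all 17, with ranges of -0.77 to -0.67, -0.70 to -0.50, -0.73 to -0.52 and -0.49 to -0.44. Without an intensity trend, 4 of these genes fell and 0 rose, as Pmvk (adjusted p = 0.0829) and Lbr (adjusted p = 0.065) did not pass, 5 of the probe sets fell and 0 rose, and 861 of all probe sets passed, against 2209. Without a filter 1396 passed, and Pmvk had adjusted p = 0.0524. Offsets of 1 and 64 and quantile normalization changed no call of the 29 genes. Pmvk has no value without probe sets ending in _x_at, _s_at or _a_at. Leaving out each array in turn gave 4 to 5 genes lower and 0 to 1 higher, 7 to 10 probe sets lower and 0 to 1 higher, and 1131 to 1952 probe sets over the whole table. The 5 sign changes were of genes that did not pass on either side. Leaving out each array in turn gave Abcg1 -0.0939 to 0.2308, Ebp -0.1315 to 0.0321, Npc2 -0.0285 to 0.1139 and Sc5d -0.0048 to 0.1039. Srebf1, at about 0, had 0.0296 with array weights and -0.129 to 0.0776 over the arrays left out. Leaving out 1 array moved the difference by over 1.5 times in 17 of the 23 genes that did not pass and in 0 of the 6 that did. As this is a ratio to the main difference, small shifts exceed it in genes near 0, such as Mvk at 0.04. The contrast was thus largely set by the sorting and says nothing further about the calls. Of 269 values of the 16 other genes named, 34 lost a call. Without an intensity trend, Rxra, Cidec, Thy1 and Cd36 no longer passed (limma adjusted p = 0.0544 to 0.07), nor did Cd14, Gramd1b, Osbpl3 and Osbpl9. Slc2a4, Cyp7b1, Cdk1, Birc5, Rrm2 and Mcm5 still passed. The cause of these changes was not tested.

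No label says whether the replicate numbers pair the cultures. Deviations from the group mean correlated at -0.061, -0.016 and 0.093 for same-numbered arrays and at -0.082 to 0.094 for the others. With 3 arrays a group, these values cannot show whether the cultures were paired. With the replicate number as a block all 6 genes passed, 9 of the probe sets fell in place of 10, and 1894 of all probe sets passed. The probe set lost was that of Hsd17b7 (limma adjusted p = 0.0535). Osbpl9 had adjusted p = 0.0526.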
